A study of Homo sapiens with 12 samples.

Results

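The early-response genes described here are EGR1, EGR2, EGR3, KLF4, KLF6, IER2, IER3, NR4A1, ZFP36 and DUSP1, 10 of the 58243 human genes listed in the deposited count files. They were chosen by name, each symbol matching 1 human Ensembl gene in GENCODE 29, and all 10 were among the 18628 human genes with enough counts to be tested. RNA was sequenced from 12 tumours of MCFDCIS, a human breast cell line whose xenografts resemble ductal carcinoma in situ, injected under the skin of athymic nude mice, which lack T cells, and left for 2 weeks before treatment. Of the 4 groups of 3 tumours, 1 received palbociclib for 2 weeks (50 mg per kg, daily, by gavage), 1 received vehicle for 2 weeks, and the other two received the same treatments followed by a recovery period whose length is not stated. Palbociclib inhibits CDK4 and CDK6, the kinases that start the cell cycle by phosphorylating the retinoblastoma protein. All groups share the same line and host, and the labels name neither the vehicle nor the ages of the mice nor say whether each tumour came from a different mouse.

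Early-response genes are transcribed within minutes of a growth factor, stress or wounding signal, before any new protein is made. The signal often runs through the ERK kinases to serum response factor (SRF) and its ETS partners at CArG boxes, or through CREB at cyclic AMP response elements, and the mRNAs are often short-lived. EGR1, EGR2 and EGR3 are zinc finger transcription factors restrained by the co-repressors NAB1 and NAB2, KLF4 and KLF6 are Krüppel-like zinc finger factors, and NR4A1 is an orphan nuclear receptor. IER2 is a small nuclear protein and IER3 a regulator of cell survival. ZFP36 (tristetraprolin) binds AU-rich mRNAs and speeds their decay, and DUSP1 is a phosphatase that switches off MAP kinases.

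In GRCh38, EGR1 lies on chromosome 5 (138465490 to 138469315, plus strand) and DUSP1 on the same chromosome (172768090 to 172771195, minus). KLF4 lies on chromosome 9 (107484852 to 107490482, minus), and EGR2 (62811996 to 62919900, minus) and KLF6 (3775996 to 3785281, minus) lie on chromosome 10. IER2 (13150415 to 13154908, plus) and ZFP36 (39406813 to 39409412, plus) lie on chromosome 19, IER3 on chromosome 6 (30743199 to 30744554, minus) and NR4A1 on chromosome 12 (52022832 to 52059507, plus). Genes on the opposite strand overlap 10.3% of the exon bases of NR4A1 and 3.38% of those of EGR3, so a part of their reads is uncertain.

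Promoters of 4 of these genes are shown because they hold, or lack, the sites through which the class is known to be switched on. The RefSeq promoter table (GRCh38.p14) was used for 8 of the 10 genes, in 11 windows of 250 bases that end just before the transcription start. Capitals mark CArG boxes and the cyclic AMP response element TGACGTCA, the searches for which covered both strands.
EGR1 promoter, chr5:138465229-138465478, plus strand: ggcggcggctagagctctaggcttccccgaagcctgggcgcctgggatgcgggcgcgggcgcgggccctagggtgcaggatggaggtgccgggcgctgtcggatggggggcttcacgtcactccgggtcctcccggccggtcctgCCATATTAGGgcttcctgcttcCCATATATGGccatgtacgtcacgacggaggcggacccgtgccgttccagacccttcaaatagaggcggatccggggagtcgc
EGR2 promoter, chr10:62816367-62816616, minus strand: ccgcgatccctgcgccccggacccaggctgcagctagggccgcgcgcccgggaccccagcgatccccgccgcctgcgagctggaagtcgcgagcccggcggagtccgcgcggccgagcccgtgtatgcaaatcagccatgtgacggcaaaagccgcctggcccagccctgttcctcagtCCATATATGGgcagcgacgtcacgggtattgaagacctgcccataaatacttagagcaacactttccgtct
DUSP1 promoter, chr5:172771196-172771445, minus strand: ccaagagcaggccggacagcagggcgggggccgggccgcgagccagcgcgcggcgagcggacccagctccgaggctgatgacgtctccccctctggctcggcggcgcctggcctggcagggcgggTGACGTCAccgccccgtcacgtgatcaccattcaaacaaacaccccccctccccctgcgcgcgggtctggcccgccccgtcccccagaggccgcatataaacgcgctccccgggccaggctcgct
KLF4 promoter, chr9:107489770-107490019, minus strand: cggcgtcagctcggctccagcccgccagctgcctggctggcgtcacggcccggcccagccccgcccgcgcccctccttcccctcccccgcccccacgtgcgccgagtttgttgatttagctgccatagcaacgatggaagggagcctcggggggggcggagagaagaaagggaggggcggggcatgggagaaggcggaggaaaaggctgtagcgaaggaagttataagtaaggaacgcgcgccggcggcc
EGR1 held 2 CArG boxes, starting 105 and 83 bases before the transcription start, and EGR2 held 1 in the window shown, starting 71 bases before it, and none in its 2 other windows. The other 6 genes had no CArG box in these windows, and 1.17% of 34796 promoters of the same length had one. DUSP1 alone among the 8 genes had the full cyclic AMP response element, 125 bases before its start, a motif found in 1.64% of promoters. Neither motif stood in the KLF4 window. That window did hold 4 GC boxes (GGGCGG), found in 42.6% of promoters, and 1 EGR site (GCGNGGGCG), found in 8.41%; 1 of the GC boxes overlapped it.

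The AU-rich heptamer TATTTAT, which in RNA is the core of the sequence bound by ZFP36, is shown for the 4 genes that carried it in the 3′ UTR of their principal GENCODE 29 transcript. Each line gives the first copy with its neighbouring bases in GRCh38, and capitals mark the heptamer.
IER3 site, chr6:30743657-30743677, minus strand: taattaaTATTTATatgtatt
ZFP36 site, chr19:39409185-39409205, plus strand: ggcccttTATTTATgacgact
DUSP1 site, chr5:172768647-172768667, minus strand: tggtcctTATTTATttaactt
KLF6 site, chr10:3778345-3778365, minus strand: tttctctTATTTATgccttga
IER3 carried 4 copies, ZFP36 itself 3, DUSP1 3 and KLF6 1. At least 3 copies were found in 6.10% of 13256 genes with a 3′ UTR, and in 4.01% of the 7248 genes whose 3′ UTR lay in the members' length range of 562 to 3543 bases. One or more copies were found in 32.7% of all those genes, so the 4 of 10 seen here was not far from the general share. The genes were also short. Their principal transcripts had a median of 2 exons and spanned a median of 4093 bases, against 9 exons and 28445 bases over the 13413 protein-coding genes tested.

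The human gene counts lay between 6613880 and 12352064 per tumour, and mouse genes took 14.2% to 25.4% of gene counts. The lowest count of any member in any tumour was 33, for KLF4. Some tumours stood apart. Vehicle tumours 2 and 3 at the end of treatment had 5.32% and 11.2% of human counts on mitochondrial genes, against 0.674% to 2.64% elsewhere. Vehicle recovery tumour 2 was the highest of the 12 tumours for 30.4% of tested genes and the lowest for 32.4%. Many values that move by over 1.5 times or turn their sign without these tumours are given both ways where the gene is described. Not all are, so a value given once need not be stable. The 10 epithelial markers fixed for the tumour cells summed to 9453 to 9788 CPM in vehicle and 10494 to 11289 CPM in palbociclib tumours at the end of treatment, and to 10594 to 14521 CPM after recovery (CPM are counts scaled to the same human total in every tumour, after trimmed mean of M-values scaling). The 15 markers of other cell types, read on human rows, summed to 153 to 186 CPM in palbociclib tumours at the end of treatment and to 95.1 to 127 CPM in the other groups. Most of that sum lay on PECAM1 and ACTA2, while the leukocyte markers PTPRC, CD68, CD163, LYZ, CD3E and MS4A1 did not exceed 0.743 CPM in any tumour. The fibroblast marker COL1A2 was at 32.7 CPM in vehicle recovery tumour 2 and did not exceed 2.19 CPM in any other tumour. The other fibroblast and mural markers were not uniform there. PDGFRB was the highest of the 12 tumours at 5.19 CPM, whereas COL1A1 (6.83 CPM), DCN (3.27 CPM) and ACTA2 (18.3 CPM) were not.

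Levels can be compared between genes only per length. Per kilobase of annotated exon, averaged over the 12 tumours, EGR1 was the most abundant member at 27.6 ± 6.16 CPM per kb (SD, n = 12), followed by KLF6 at 16.4 ± 2.99 and ZFP36 at 14.7 ± 1.71. IER3 followed at 10.2 ± 3.42, IER2 at 8.17 ± 0.839 and DUSP1 at 8.01 ± 2.13 CPM per kb. KLF4, EGR3, NR4A1 and EGR2 were the lowest by this measure, at 3.79 ± 2.08, 3.19 ± 1.30, 3.10 ± 0.968 and 2.69 ± 1.43 CPM per kb. The length used is that of all annotated exons of a gene together. For NR4A1 it is 7295 bases, whereas its principal transcript has 2678, so its place in the order depends on the length chosen. The ranges over tumours overlapped for all 9 pairs of neighbours in this order. Within tumours, EGR1 was above KLF6 and DUSP1 above KLF4 in 12 of 12, whereas KLF6 was above ZFP36, IER2 above DUSP1 and KLF4 above EGR3 in only 7 of 12 each, and EGR3 above NR4A1 in 6.

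**Figure D1:**
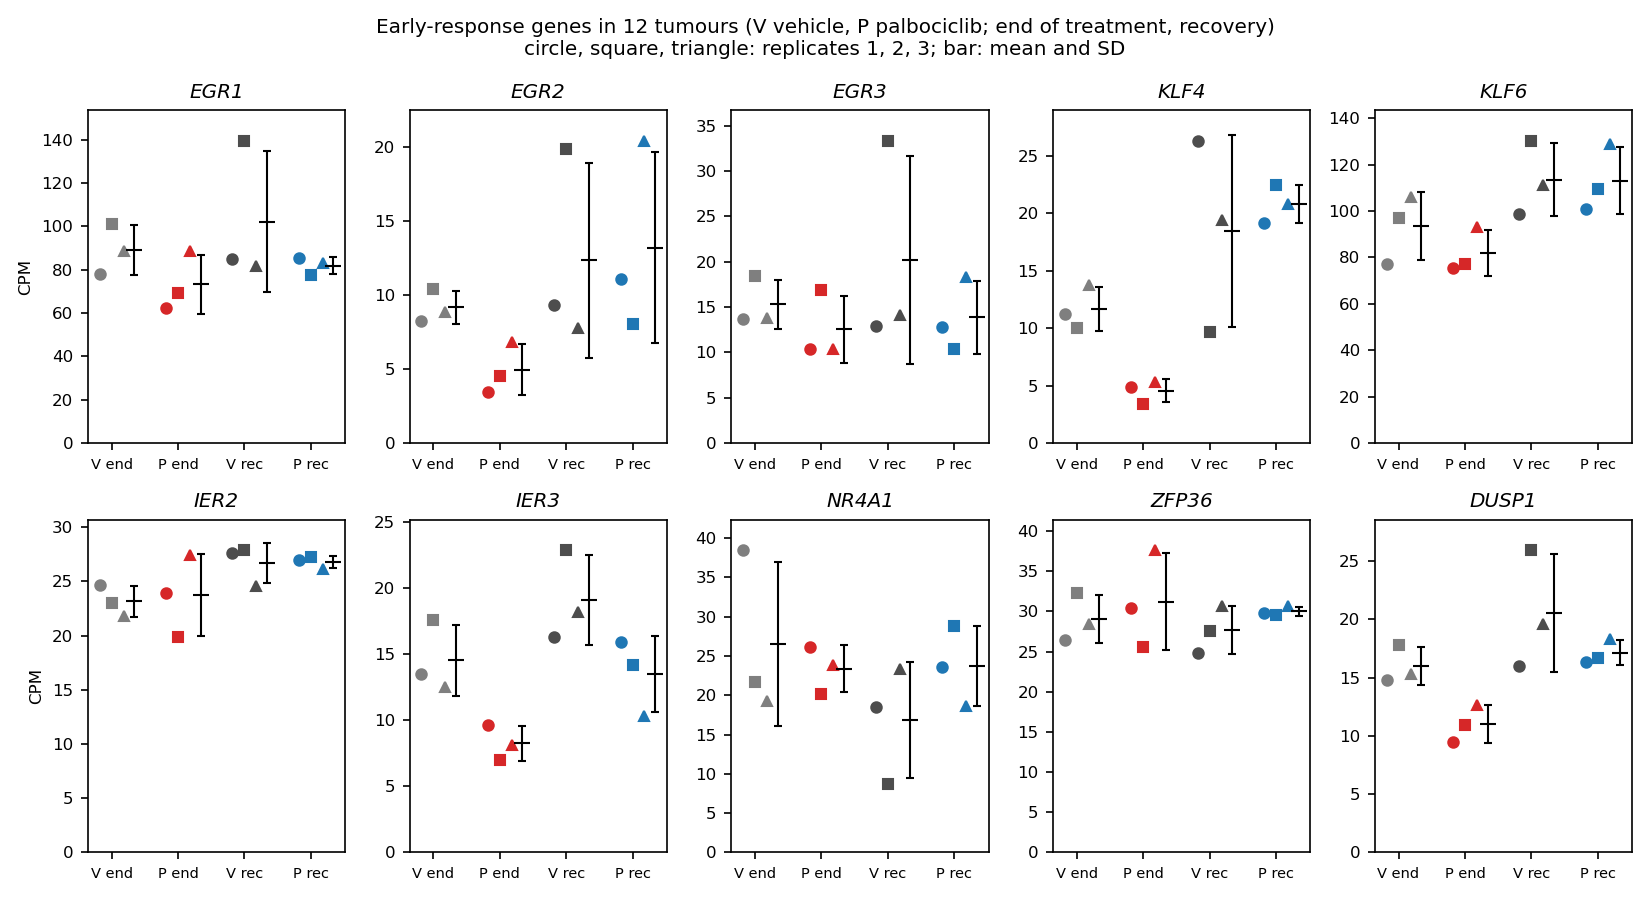
CPM (vertical axis, starting at 0) of the 10 genes in each of the 12 tumours, with V for vehicle, P for palbociclib, end for end of treatment and rec for recovery; symbols are replicates 1 to 3, and the black bar is the mean with the SD of 3 tumours. KLF4 lies between 3.41 and 5.31 CPM in palbociclib tumours at the end of treatment and at 9.71 CPM or above in the other 9 tumours, while IER2 and ZFP36 move little.

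The first comparison asked how the genes stood in palbociclib tumours against vehicle tumours at the end of treatment. KLF4, a factor known for epithelial differentiation and growth arrest, was the only one of the 10 that passed, and it was 2.55-fold lower. It measured 4.90, 3.41 and 5.31 CPM in the palbociclib tumours and 11.3, 10.04 and 13.8 CPM in the vehicle tumours. The groups were well apart, and the vehicle tumours with high mitochondrial shares (10.04 and 13.8 CPM) lay on either side of the one without (11.3 CPM). The log2 fold change was -1.35 ± 0.31 SE (edgeR quasi-likelihood adjusted p = 0.040, with Benjamini-Hochberg adjustment).

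Of all tested genes 1.84% were called in this comparison and 1.7% were called lower, beside 1 of the 10 members. In bulk tumour RNA, fewer cells of a type and less RNA per cell cannot be told apart. The KLF4 value stayed between -1.47 and -1.08 in 24 alternative fits, but the call was held in 9 of them. It was lost without any 1 of the 3 palbociclib or 3 vehicle tumours at the end of treatment, any 1 of the 3 palbociclib recovery tumours, or vehicle recovery tumour 3 (edgeR adjusted p from 0.056 to 0.18). Without both vehicle tumours of high mitochondrial share the value was -1.31 (edgeR adjusted p = 0.49), where the 1 vehicle tumour left was taken to vary as much as the rest. DESeq2 gave -1.35 with an adjusted p of 0.0012. The summed markers of other cell types and the summed epithelial markers, given above, were both higher in every palbociclib tumour than in any vehicle tumour at this stage. Of the single markers, 1 of 10 epithelial ones, the basal keratin gene KRT5, was called higher, at 0.74 ± 0.17, and none of the 7 tested of other cell types passed. Their part in the KLF4 value was not tested.

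IER3, DUSP1 and EGR2 had lower values without passing, and their groups did not overlap either. IER3 measured 9.62, 7.03 and 8.11 CPM with palbociclib against 13.5, 17.6 and 12.5 CPM with vehicle. Its log2 fold change was -0.81 ± 0.21 SE (edgeR adjusted p = 0.081). It passed in 6 of the 24 alternative fits, among them DESeq2 (adjusted p = 0.028) and the fit without vehicle recovery tumour 2 (edgeR adjusted p = 0.017). Part of the IER3 gene lies under an antisense gene, IER3-AS1, which shares 26.5% of its exon bases, and since strand handling is not stated their reads cannot be told apart.

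DUSP1, the MAP kinase phosphatase, measured 9.44, 10.95 and 12.6 CPM with palbociclib against 14.8, 17.8 and 15.3 CPM with vehicle. Every vehicle tumour was above every palbociclib tumour, with a difference of -0.54 ± 0.19 SE on the log2 scale (edgeR adjusted p = 0.25). EGR2 measured 3.47, 4.55 and 6.85 CPM with palbociclib against 8.23, 10.4 and 8.86 CPM with vehicle. Its log2 fold change of -0.89 ± 0.42 had the widest error of the 10 (edgeR adjusted p = 0.53). With KLF4, 4 of the 10 members had all palbociclib tumours below all vehicle tumours, and 11.3% of all tested genes did. None had all palbociclib tumours above all vehicle tumours, against 9.39% of tested genes.

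EGR1, the best known of the class and the one with 2 CArG boxes in its window shown above, measured 62.3, 69.3 and 88.6 CPM with palbociclib against 77.8, 101 and 88.7 CPM with vehicle. The groups overlapped, and the log2 fold change was -0.28 ± 0.19 SE (edgeR adjusted p = 0.74). EGR3 at -0.29 ± 0.36, KLF6 at -0.19 ± 0.15 and NR4A1 at -0.19 ± 0.33 also overlapped between groups and did not pass (edgeR adjusted p = 0.89, 0.79 and 0.93). Without vehicle tumours 2 and 3 of this stage, the values of EGR1, EGR3, KLF6 and NR4A1 were -0.08, -0.13, 0.08 and -0.72, so KLF6 turned its sign and NR4A1 moved the farthest. None of the 4 passed in that fit. NR4A1 was uneven among the vehicle tumours, at 38.5 CPM in tumour 1 against 21.7 and 19.3 CPM in tumours 2 and 3.

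IER2 and ZFP36 had the smallest values. The log2 fold change of IER2 was 0.03 ± 0.13 and that of ZFP36 0.11 ± 0.15 SE (edgeR adjusted p = 0.98 and 0.91), and they were -0.05 and 0.24 without vehicle tumours 2 and 3. Over the 12 tumours IER2 stayed between 19.8 and 27.9 CPM and ZFP36 between 24.8 and 37.6 CPM. The antisense gene AC011446.2 shares 30.8% of the exon bases of IER2, so its value is uncertain in the same way as that of IER3. The median of the 10 log2 fold changes was -0.29, against 0.00 over all tested genes, and 8 of the 10 were negative, as were 49.8% of all tested genes.

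**Figure D2:**
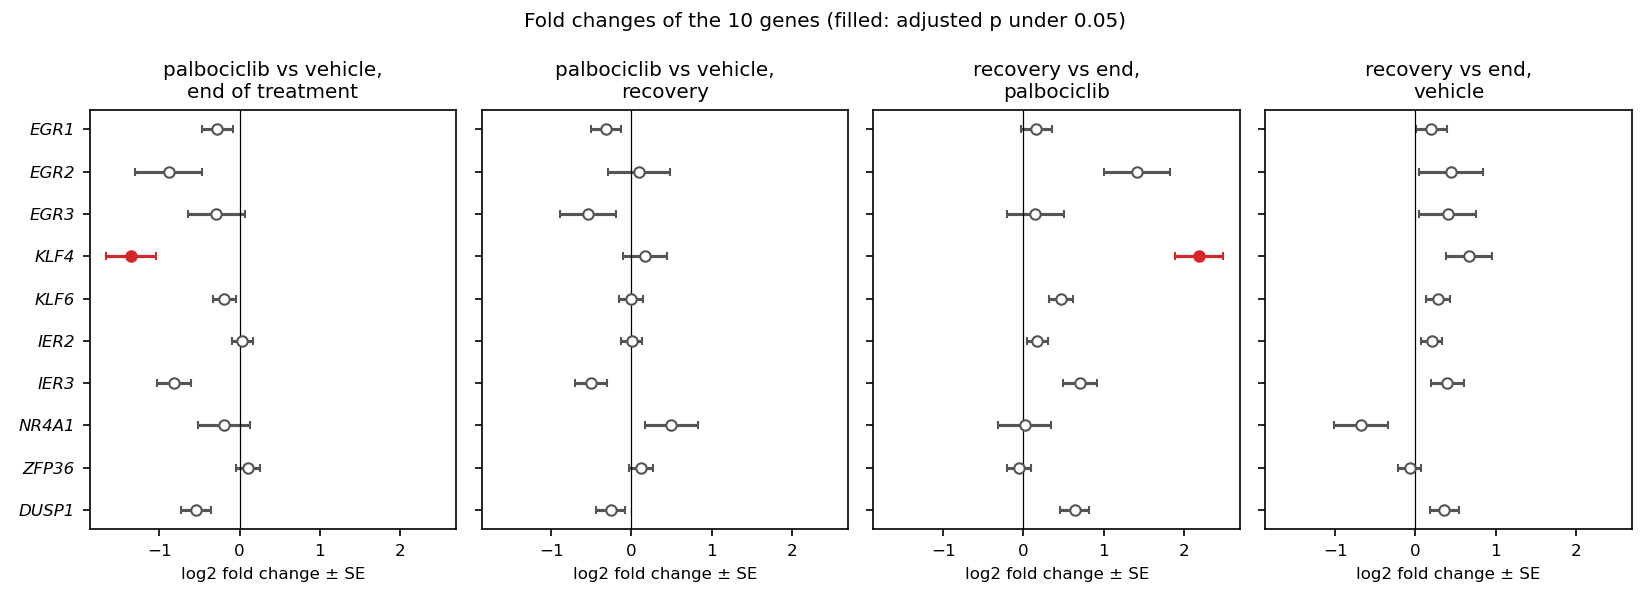
Log2 fold change with its SE (horizontal axis) of each gene in 4 comparisons, from the same edgeR fit over 12 tumours; filled symbols passed at an adjusted p under 0.05. KLF4 is filled in the first panel, at the end of treatment (-1.35), and in recovery against end of treatment in palbociclib tumours (2.19); no gene is filled in the other comparisons.

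The next comparison, called withdrawal here, set recovery against the end of treatment in palbociclib tumours. The end of dosing and the time that passed go together in it and cannot be told apart. KLF4 rose 4.56-fold from the end of treatment to recovery. Its values went from 4.90, 3.41 and 5.31 CPM to 19.2, 22.5 and 20.8 CPM. The recovery tumours were close to each other and far above the treated ones, with a difference of 2.19 ± 0.30 SE on the log2 scale (edgeR adjusted p = 0.0012). KLF4 passed in all 24 alternative fits, between 2.03 and 2.32. Of all tested genes 2.82% were called in this comparison and 2.36% were called higher, beside 1 of the 10 members.

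EGR2, IER3, DUSP1 and KLF6 were also higher in every recovery tumour than in any treated one, without passing. EGR2 measured 11.1, 8.08 and 20.5 CPM, a difference of 1.42 ± 0.41 SE on the log2 scale (edgeR adjusted p = 0.10), and tumour 3 was about as high as the highest vehicle recovery tumour. IER3 measured 15.9, 14.2 and 10.4 CPM, with a log2 fold change of 0.71 ± 0.21 (edgeR adjusted p = 0.11). DUSP1 measured 16.3, 16.7 and 18.3 CPM, with 0.64 ± 0.18 (edgeR adjusted p = 0.091).

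KLF6 measured 75.2, 77.3 and 93.2 CPM under treatment and 101, 109 and 129 CPM after it, with a log2 fold change of 0.47 ± 0.15 (edgeR adjusted p = 0.14). Including KLF4, 5 of 10 members had all recovery tumours above all treated ones, and 14.9% of all tested genes did. Without vehicle recovery tumour 2, which is in neither group but enters the shared estimate of spread, these same 5 genes passed (edgeR adjusted p between 4.3e-07 for KLF4 and 0.028 for KLF6), in a fit that called 7.37% of all genes in either direction. DESeq2 called KLF4, EGR2 and DUSP1, and 4.42% of all genes.

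EGR1, EGR3, IER2, NR4A1 and ZFP36 had log2 fold changes between -0.06 and 0.17 on withdrawal, with overlapping groups and edgeR adjusted p of at least 0.62. The palbociclib tumours at the end of treatment enter both of these comparisons, so a gene that is low in them tends to be negative in the one and positive in the other. Over the 10 members the median log2 fold change was 0.32 on withdrawal, with 9 positive. Between the same stages in vehicle tumours it was 0.32 too, with 8 positive. Of all tested genes 51.4% were negative on withdrawal and 50.6% in vehicle tumours. There KLF4, EGR2, IER3, DUSP1 and KLF6 stood at 0.67, 0.44, 0.40, 0.36 and 0.28, without passing. Without vehicle recovery tumour 2 these vehicle values were 0.99, -0.08, 0.24, 0.15 and 0.17, and EGR1 and EGR3 turned negative as well (-0.09 and -0.17). The vehicle median and its 8 positive values therefore depend on that tumour.

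After recovery the question was whether palbociclib tumours still differed from vehicle tumours. No member passed in edgeR or in DESeq2, and 1, IER3, had an unadjusted p under 0.05, as did 1612 of the 18628 tested genes. At the adjusted threshold 0.00537% of all tested genes were called. KLF4 stood at 19.2, 22.5 and 20.8 CPM in recovered palbociclib tumours and at 26.3, 9.71 and 19.4 CPM in recovered vehicle tumours. The palbociclib values fell inside the vehicle range, with a difference of 0.17 ± 0.27 SE on the log2 scale (edgeR adjusted p = 0.83). That range rested on vehicle recovery tumour 2, at 9.71 CPM. Without it 1 palbociclib tumour lay below both remaining vehicle tumours and the other two between them, and the value turned to -0.14.

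IER3 measured 15.9, 14.2 and 10.4 CPM in recovered palbociclib tumours and 16.3, 22.9 and 18.2 CPM in recovered vehicle tumours. It was the only member whose groups did not overlap, where 5.5% of all tested genes lay lower and 6.32% higher in that way, and its log2 fold change was -0.50 ± 0.20 (edgeR adjusted p = 0.57). The values of the EGR genes turned on vehicle recovery tumour 2. EGR1 was 139.7 CPM in that tumour and 85.0 and 81.8 CPM in the other two, and EGR3 was 33.4 CPM against 13.0 and 14.2 CPM. The log2 fold change of EGR1 was -0.32 ± 0.19 with that tumour and -0.02 without it, and that of EGR3 -0.54 ± 0.35 with it and 0.04 without it.

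EGR2 was 19.9 CPM in the same tumour and 9.36 and 7.81 CPM in the other two. Its log2 fold change was 0.09 ± 0.38 with and 0.62 without that tumour. NR4A1 stood the opposite way, at 8.75 CPM in vehicle recovery tumour 2 against 18.6 and 23.3 CPM, with 0.50 ± 0.33 and 0.19 without it. KLF6, IER2, ZFP36 and DUSP1 lay at 0.00 ± 0.15, 0.00 ± 0.13, 0.12 ± 0.15 and -0.26 ± 0.18. Without vehicle recovery tumour 2 they lay at 0.11, 0.04, 0.12 and -0.05.

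The difference between the palbociclib effects at these stages was tested directly. None of the 10 passed in edgeR or DESeq2, KLF4 alone had an unadjusted p under 0.05, as did 974 of all tested genes, and 0.22% of all tested genes were called. For KLF4 the effect after recovery was 1.52 ± 0.41 higher on the log2 scale than at the end of treatment SE (edgeR adjusted p = 0.34). Without vehicle recovery tumour 2 the difference was 1.20 (edgeR adjusted p = 0.035), and with all 12 tumours but no low-count filter it was 1.52 (edgeR adjusted p = 0.00027). It did not pass in the other alternatives. The next in size were EGR2 at 0.98 ± 0.57 and NR4A1 at 0.69 ± 0.47 (edgeR adjusted p = 0.95 for both). Without vehicle recovery tumour 2 these were 1.499 and 0.39, and without vehicle tumours 2 and 3 at the end of treatment they were 0.82 and 1.21.

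In vehicle tumours, recovery against end of treatment compares the stages without the drug. No member passed in edgeR or in DESeq2, where edgeR called 0% of all genes and DESeq2 83. KLF4 alone had an unadjusted p under 0.05, as did 2687 of all tested genes. KLF4 measured 11.3, 10.04 and 13.8 CPM earlier and 26.3, 9.71 and 19.4 CPM later, so 2 of the 3 later tumours were above all earlier ones and vehicle recovery tumour 2 was below them. The log2 fold change was 0.67 ± 0.29 SE (edgeR adjusted p = 0.33), and 0.99 without that tumour (edgeR adjusted p = 0.077). The earlier and later groups overlapped for all 10 genes, whereas 6.71% of tested genes were higher and 8.03% lower in every later tumour. NR4A1 had the lowest value, -0.68 ± 0.33 (edgeR adjusted p = 0.37). It was -0.37 without vehicle recovery tumour 2 and -1.20 without vehicle tumours 2 and 3 at the end of treatment. With all tumours, the other 8 genes lay between -0.07 and 0.44. Without vehicle recovery tumour 2, the log2 fold changes of EGR1, EGR2 and EGR3 were -0.09, -0.08 and -0.17, and with it they were 0.20, 0.44 and 0.40. The codes of all palbociclib tumours start with 7. Those of vehicle tumour 1 at the end of treatment and vehicle recovery tumours 1 and 2 do not. What the codes stand for is not stated, so time cannot be told apart from a difference in code. Without these tumours the earlier vehicle group holds only tumours 2 and 3, of high mitochondrial share.

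**Figure D3:**
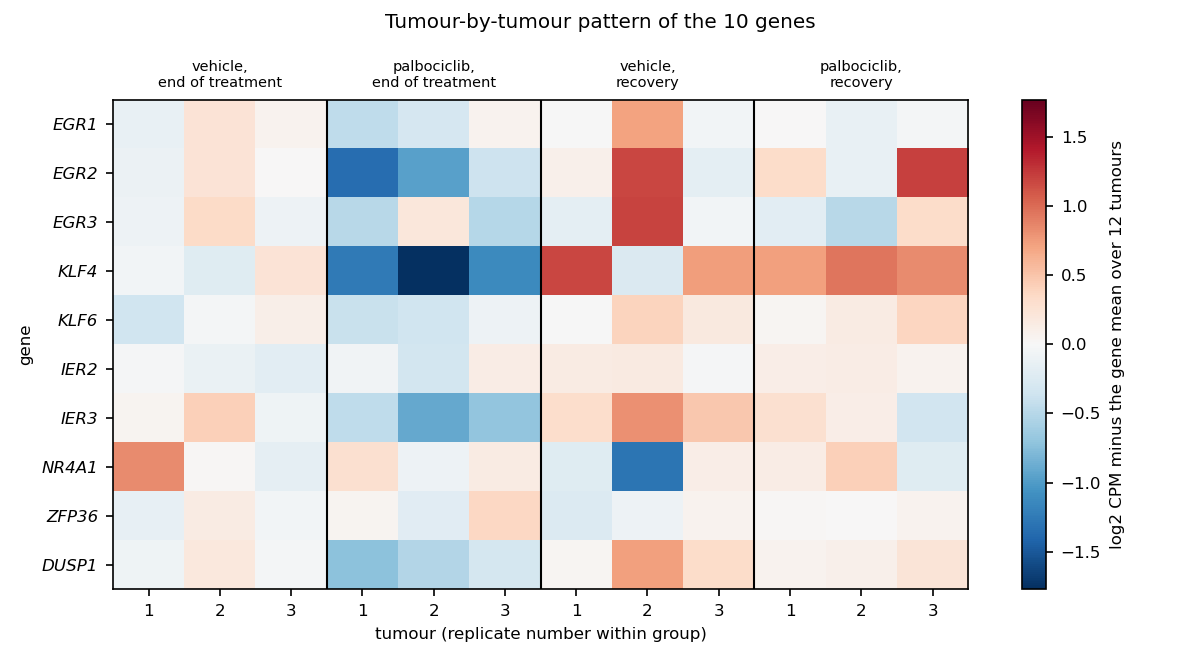
Log2 CPM of each gene (rows) in each tumour (columns, replicates 1 to 3 within each group) after subtraction of the gene's mean over 12 tumours; red is above and blue below that mean. KLF4 and EGR2 span the widest range, and vehicle recovery tumour 2 is the highest tumour for 6 of the 10 genes and the lowest for NR4A1.

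The members did not move as 1 block across tumours. Vehicle recovery tumour 2 was the highest of 12 for EGR1, EGR3, KLF6, IER2, IER3 and DUSP1, the lowest for NR4A1, and the lowest vehicle tumour for KLF4. The lowest of the 12 tumours was one of the palbociclib tumours at the end of treatment for 8 of the 10 genes, all but NR4A1 and ZFP36. It was tumour 1 for 4 genes, tumour 2 for 3 and tumour 3 for 1, and over all tested genes these tumours were the lowest for 7.33%, 6.58% and 9.50%. For EGR1, EGR3 and IER2 another tumour of the same group was among the 4 highest. The spread within groups, as the SD of log2 CPM around the group means, ran from 0.13 for IER2 to 0.55 for EGR2. It was above the median of 0.19 for the 8366 genes of like level in 8 of the 10 genes, all but IER2 and ZFP36.

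Likeness was measured as the root mean square difference of centred log2 CPM over the 12 tumours, where a lower value means a smaller difference. Spread was not scaled, so genes that vary little lie near each other whether or not they move together, and genes that vary much lie far. DUSP1 at 0.21 and KLF6 at 0.22 were the members nearest to EGR1, and KLF4 at 0.89 was the farthest. The median was 0.35 over the 14398 human genes with a mean log2 CPM of at least 1. Among those genes DUSP1 ranked only 1339 and KLF6 1503 in nearness to EGR1. The 5 genes nearest to EGR1 included ELOVL6, a fatty acid elongase, at 0.10, and PPP2R5E, a regulatory subunit of protein phosphatase 2A, at 0.10. The others were the cell death gene BCL2L11 at 0.11, CABLES1 at 0.11, and EIF4EBP2, a repressor of translation initiation, at 0.11. None of these 5 is a member. The member nearest to KLF4 was IER3, at a distance of 0.71. DUSP1 was the nearest member to EGR1, EGR2, KLF6 and IER3, and IER2 and ZFP36 were nearest to each other at 0.19.

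Relatives of the members in the same gene families were called in 1 of 24 at the end of treatment and in 5 of 24 on withdrawal, where 1.84% and 2.82% of all tested genes were called. At the end of treatment DUSP10, a phosphatase of stress-activated MAP kinases, fell from 22.7 ± 6.43 CPM in vehicle to 9.40 ± 1.06 CPM in palbociclib tumours (SD, n = 3). Its log2 fold change was -1.26 ± 0.18 SE (edgeR adjusted p = 0.0012), and none of the other 23 passed. The median of the list was -0.11. On withdrawal, DUSP10 rose by 1.51 ± 0.17 (edgeR adjusted p = 0.0003), and DUSP5, IER5L and KLF11 rose, while KLF9 fell. DUSP5 was at 0.58 ± 0.12, IER5L at 0.63 ± 0.14 and KLF9 at -0.79 ± 0.19. Vehicle tumours moved the same way between these stages, although none of the 24 passed there. Their mean CPM went from 22.7 to 41.6 for DUSP10, 32.6 to 48.8 for DUSP5 and 29.4 to 46.9 for IER5L. KLF11 went from 37.7 to 44.8 and KLF9 from 8.46 to 6.86. In palbociclib tumours the means went from 9.40 to 26.7 CPM for DUSP10, 24.1 to 36.0 for DUSP5 and 25.5 to 39.3 for IER5L. KLF11 went from 26.8 to 40.0 CPM there and KLF9 from 13.3 to 7.65. The difference between the palbociclib effects at the 2 stages passed for none of the 24. The cause of these changes was not tested. EGR4, NR4A2, NR4A3, ZFP36L1 and ZFP36L2, the nearest relatives of EGR1, NR4A1 and ZFP36, passed in none of the 5 comparisons.

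The genes around the class were examined by list. Of 11 EGR co-repressors and EGR1 target genes tested, none passed in any comparison. NAB2, itself induced by EGR1 and restraining it, averaged 33.2 ± 4.78 CPM after 2 weeks of palbociclib and 44.8 ± 8.69 CPM after 2 weeks of vehicle (SD, n = 3). Its log2 fold change was -0.44 ± 0.16 SE (edgeR adjusted p = 0.29). None of 9 genes of SRF and its partners passed in any comparison either, and SRF was at -0.08 ± 0.12 at the end of treatment (edgeR adjusted p = 0.92). In the ERK cascade, 1 of 11 genes, the kinase gene MAP2K1, rose on withdrawal, by 0.64 ± 0.11 (edgeR adjusted p = 0.0052), and none passed at the end of treatment. In vehicle tumours MAP2K1 went from 38.6 to 50.9 CPM between the same stages, without passing.

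AP-1 subunits are early-response genes too. At the end of treatment FOS fell from 72.1 ± 13.4 to 31.9 ± 0.584 CPM (SD, n = 3) and JUN from 106 ± 12.9 to 57.1 ± 4.00 CPM, 2 of 8 tested, with log2 fold changes of -1.18 ± 0.15 and -0.89 ± 0.13 SE (edgeR adjusted p = 0.00046 and 0.0020). All 8 values were negative, with a median of -0.86. Over all tested genes the median was 0.00, with 49.8% negative and 1.84% called. On withdrawal FOS rose by 1.43 ± 0.15, JUN by 1.00 ± 0.13 and JUND by 0.47 ± 0.12 (edgeR adjusted p = 0.00011, 0.00076 and 0.046). Between the same stages in vehicle tumours FOS went from 72.1 to 88.9 CPM, JUN from 106 to 124 and JUND from 50.5 to 53.8, without passing.

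Among 31 other immediate-early and stress-response genes, 4 fell and 1 rose at the end of treatment, with a median of -0.08. Of all tested genes 1.84% were called there. PPP1R15A, a phosphatase subunit of the stress response, went from 75.2 ± 12.3 to 28.7 ± 2.19 CPM (SD, n = 3), and its log2 fold change was -1.39 ± 0.16 SE (edgeR adjusted p = 0.00025). HBEGF at -1.68 ± 0.23, CSRNP1 at -0.70 ± 0.13 and MAFF fell too, while the antiproliferative gene BTG2 rose by 1.05 ± 0.14. On withdrawal 5 of the 31 rose and 1 fell, PPP1R15A at 1.38 ± 0.16, MAFF at 1.22 ± 0.21, CSRNP1 at 0.77 ± 0.13 and BTG2 at -1.07 ± 0.14 among them. The list median was 0.28 there and 0.24 in vehicle tumours between the same stages, where none passed. Of 13 mRNAs known as ZFP36 targets, 4 fell and 1 rose at the end of treatment, with a median of -1.65, again beside 1.84% of all tested genes. This list was chosen with earlier results of these data known, so its count and median do not describe ZFP36 targets as a class. ZFP36 itself was at 0.11 ± 0.15, and its part in these values was not tested. The 4 that fell were VEGFA at -1.75 ± 0.22, PIM1 at -1.48 ± 0.25, CXCL8 at -4.01 ± 0.63 and CXCL1, and CCND1 rose by 0.79 ± 0.12. In vehicle tumours 1, 2 and 3 CXCL8 measured 11.9, 58.6 and 56.2 CPM and CXCL1 15.1, 97.0 and 59.3 CPM. Tumours 2 and 3, those of high mitochondrial share, thus stood far above tumour 1 and enlarged both falls. The palbociclib tumours did not exceed 3.41 CPM for CXCL8 and 6.85 CPM for CXCL1. After recovery, none of the genes of the lists in this and the preceding 2 paragraphs passed between palbociclib and vehicle tumours.

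**Figure D4:**
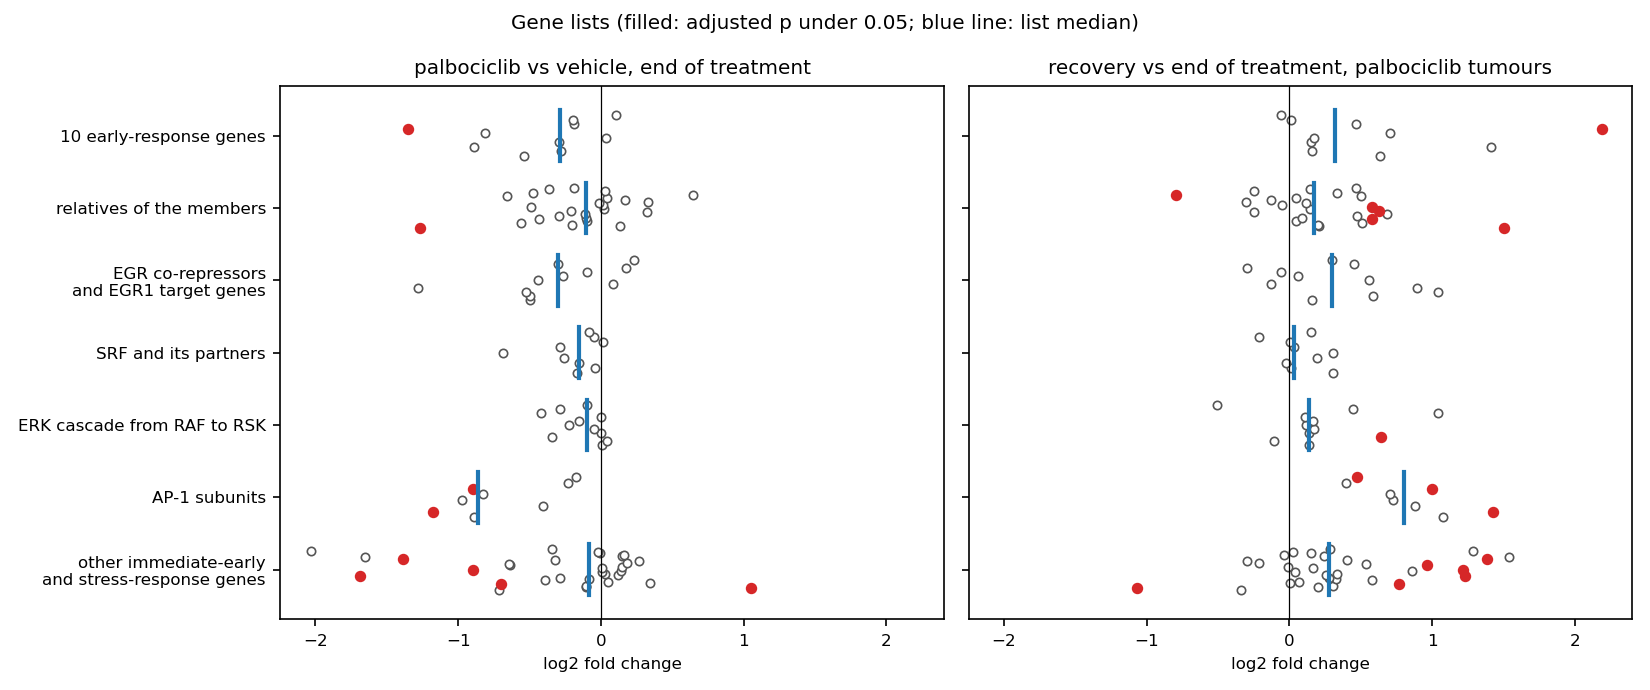
Log2 fold change (horizontal axis) of every tested gene of 7 lists in 2 comparisons that share the palbociclib tumours at the end of treatment; filled points passed at an adjusted p under 0.05 and blue lines are list medians. In the left panel the median is -0.29 for the 10 early-response genes, -0.86 for AP-1 subunits and -0.15 for SRF and its partners.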

How the data were processed

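RNA from 12 tumours was sequenced. Per the submitters' processing notes, CASAVA 1.8, cutadapt, STAR and edgeR were used with the builds GRCh38 and GRCm38. The sources used here do not give the counting program, strand setting or annotation release. The values the authors deposited are raw counts per Ensembl gene. In each file 4 rows that name no gene held 37.0% to 69.1% of all counts and were left out, as were 713 repeated rows. Symbols, positions and exon lengths came from GENCODE 29 (57980 of 58243 human identifiers matched). Replicate numbers follow accession order, and no pair of replicates agreed within counting noise (chi-square per degree of freedom 4.55 to 63.2). Since tumours of a group are not stated to come from different mice, p-values cover tumour-to-tumour spread, which may be technical in part.

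Human counts were tested in R 4.3.3 with edgeR 4.0.16 (filterByExpr with minimum count 10 and total 15, TMM, robust quasi-likelihood fit of 4 group means over 12 tumours), with Benjamini-Hochberg adjustment over 18628 genes and a threshold of 0.05. CPM use the same scaling. DESeq2 1.42.0, other normalizations, filters, covariates and left-out tumours were the alternatives, 24 in all, of which 1 was chosen after seeing the data. The steps were tested on simulated data. The members and gene lists were chosen with earlier results of these data known. All 10 members were named, with up to 4 genes of each list that passed and had the smallest p, and the 5 genes nearest to EGR1. MAFF, CXCL1 and KLF11 at places beyond the fourth, and list genes that did not pass, were named after their values were seen. DNA motifs were searched with Python 3.11.15.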

Additional observations from a re-analysis of the deposited data

Results flagged for a closer look

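For FOS, an AP-1 subunit gene, the difference between the palbociclib effects at the 2 stages passed, which was so for none of the 10 early-response genes. The effect after recovery was 1.13 ± 0.20 higher on the log2 scale than at the end of treatment SE (edgeR adjusted p = 0.037). Of all tested genes 0.22% were called for this difference. FOS was lower in 3 of 3 palbociclib tumours than in any vehicle tumour at the end of treatment, as were 11.3% of all tested genes. The FOS result was not checked in the alternative fits. Over all genes the 41 called for the difference were 12 without palbociclib tumour 1 at the end of treatment and 161 without vehicle recovery tumour 2.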

How the results depend on the processing

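No paired analysis was possible because the labels give no replicate number shared between groups. The number of the 10 genes called at the end of treatment, 1, was 0 with library size alone, with the mouse share or the mitochondrial share as covariate and without vehicle tumours 2 and 3 of that stage. It was 2 with DESeq2 (2.85% of all genes called, against 1.84%), with only the groups compared (3.96%) and without the 3 tumours whose codes do not start with 7 (4.79%), and 3 without a low-count filter (1.96%). Leaving out 1 tumour gave 0 to 2. For the difference between stages, 0 became 1 without a low-count filter (0.832% of all genes, against 0.22%), and 0 to 1 when leaving out 1 tumour. On withdrawal in palbociclib tumours, 1 became 3 with DESeq2 (4.42% of all genes, against 2.82%) and 4 without a low-count filter (2.98%), with only the groups compared (9.21%) and without those 3 tumours (7.65%), and was 1 to 5 when leaving out 1 tumour. In vehicle tumours 0 became 2 (KLF4 and NR4A1) without a low-count filter, where 2.92% of all genes were called, against 0%. After recovery the count was 0 in every fit. Of 1190 member values under alternatives, 87 changed sign, none of them with a call on either side. The only-groups fit equals the full fit for the difference and was not repeated. Over all genes, the 343 called at the end of treatment were 748 without vehicle recovery tumour 2 and 95 without vehicle tumours 2 and 3 at the end of treatment, and the 526 called on withdrawal were 1425 without vehicle recovery tumour 2. The cause of these changes was not tested.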
